A study of Mus musculus with 6 samples.

Results

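The genes described here are 9 transcription factors of the GABAergic interneuron lineage: the homeodomain factors Dlx1, Dlx2, Dlx5, Dlx6 and Nkx2-1, the LIM-homeodomain factors Lhx6 and Lhx8, and the zinc finger factors Sp8 and Sp9. They were chosen by name for their known roles, but with earlier results of these data already known. All 9 were found among the 55367 gene rows of the count table. RNA-seq had been carried out on poly(A) RNA from cerebral cortical neurons of C57BL/6J mouse pups taken at postnatal day 1 (P1) and cultured for 2 days in vitro. Each genotype, WT and Fmr1-KO, was represented by 3 libraries, for which the labels name no treatment. The Fmr1-KO mouse carries a disrupted Fmr1 gene in all of its cells and is a model of fragile X syndrome, in which the RNA-binding protein FMRP is missing. According to the study's methods, ACSA2+ astrocytes and myelin were depleted from the dissociated cortex of both genotypes before plating. The study describes its triplicate samples as independently derived. The labels do not say whether the libraries of a genotype came from separate pups or cultures. P values therefore weigh the genotype difference against the spread between these libraries only.

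Cortical GABAergic interneurons are born in the ganglionic eminences of the ventral forebrain and migrate into the cortex. Dlx1 and Dlx2 act in progenitors and newborn neurons of all of these eminences, and Dlx5 and Dlx6 act after them in the same cells. Nkx2-1 gives the medial ganglionic eminence its identity and turns on Lhx6, which cortex-bound interneurons of the somatostatin and parvalbumin classes keep, and Lhx8, which is best known from cholinergic neurons. Sp8 and Sp9 are used in interneurons of the caudal and lateral eminences, including those bound for the olfactory bulb, and Sp9 also in the medial eminence.

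In Fmr1-KO relative to WT neurons, Dlx1, Dlx2, Dlx5, Sp8, Sp9 and Nkx2-1 rose, by log2 fold-changes from 0.19 for Sp9 to 0.59 for Dlx2. Lhx6 fell by 0.44 and Lhx8 by 1.80 on the log2 scale. Dlx6 had a log2 fold-change of 0.14 and did not pass the test. The 9 genes therefore split into 6 that were higher, 2 that were lower and 1 that was not called, where a call is an adjusted P under 0.05 in a quasi-likelihood test across 16976 genes. The background was high, since 20.7% of all tested genes were called higher and 21.9% were called lower. Lhx8 passed the filter on low counts through its WT libraries only. Without it, 6 of the other 8 genes were higher and 1 was lower. The median log2 fold-change over the 9 genes was 0.32, and 0.34 without Lhx8, against 0.0060 over all tested genes. In bulk RNA such as this, fewer cells of a type and less RNA per cell cannot be told apart.

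Library totals ran from 30348556 to 35126207 counts, and the spread between same-genotype libraries exceeded counting noise. Fmr1, the targeted gene, was examined first. It had 118, 112 and 110 CPM (reads scaled to the library's total, corrected by edgeR's TMM factors) in WT replicates 1, 2 and 3, and 54.2, 61.4 and 56.7 CPM in the Fmr1-KO libraries. The genotypes did not overlap, and the log2 fold-change was −0.98 (SE 0.04), so the RNA was lower but still present in the libraries labelled Fmr1-KO. Against the label of cortical neurons, all 10 markers of a fixed neuronal list were detected in every library, and so were markers of astrocytes and of the oligodendrocyte lineage, whose levels are given with the gene lists.

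Dlx1 was the most abundant of the 9 genes. It had 255, 251 and 266 CPM in WT replicates 1, 2 and 3, and 352, 339 and 372 CPM in the Fmr1-KO libraries. Every Fmr1-KO library lay above every WT library, and the gap between the genotypes was larger than the spread within either. The means were 257 ± 7.82 CPM in WT and 354 ± 16.9 CPM in Fmr1-KO (SD, n = 3), with a log2 fold-change of 0.46 (95% interval 0.39 to 0.54, edgeR adjusted P = 6.77e-10). Behind these values stood 26004 reads in the WT libraries and 34765 in the Fmr1-KO libraries.

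Dlx2, the neighbour of Dlx1 on chromosome 2 and a partner with overlapping function, had 81.6, 85.5 and 86.1 CPM in WT. In the Fmr1-KO libraries it had 131, 118 and 134 CPM. The genotypes were again fully apart, and the lowest Fmr1-KO library was replicate 2. The log2 fold-change was 0.59 (95% interval 0.51 to 0.68, edgeR adjusted P = 3.01e-10), the largest rise among the 9 genes. The intervals of Dlx1 and Dlx2 overlapped slightly.

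Dlx5, which acts after Dlx1 and Dlx2, had 26.5, 29.1 and 26.9 CPM in WT and 35.4, 32.2 and 38.5 CPM in Fmr1-KO. All 3 Fmr1-KO libraries were above the WT range, although replicate 2 of Fmr1-KO was close to replicate 2 of WT. The log2 fold-change was 0.36 (95% interval 0.24 to 0.49, edgeR adjusted P = 4.26e-05). Dlx6, its neighbour on chromosome 6, had 11.2, 11.3 and 12.6 CPM in WT and 11.3, 12.6 and 14.5 CPM in Fmr1-KO. Here the genotypes overlapped, with replicate 1 of Fmr1-KO inside the WT range and replicate 2 just above its upper end. The log2 fold-change was 0.14, with a 95% interval of −0.04 to 0.31 and an edgeR adjusted P of 0.213. The value rested on 1183 reads in WT and 1260 in Fmr1-KO.

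**Figure D1:**
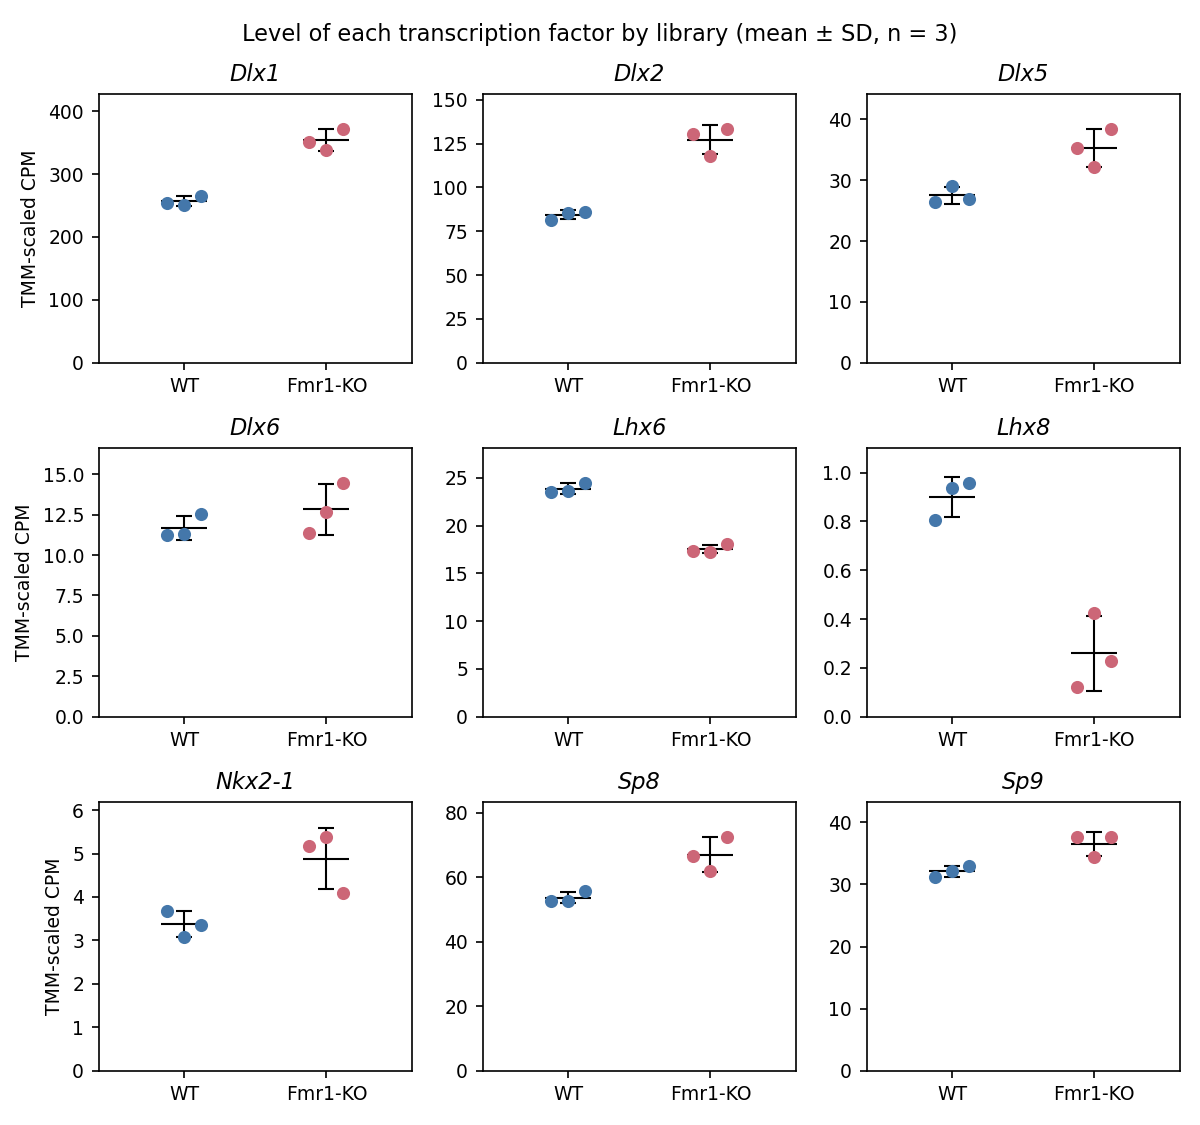
TMM-scaled CPM of each of the 9 transcription factors, with 1 panel per gene, a vertical axis that starts at 0, WT libraries in blue and Fmr1-KO libraries in red. Dots are libraries in replicate order and bars are the mean ± SD (n = 3). The genotypes overlap in the Dlx6 panel, lie higher in Fmr1-KO in 6 panels and lie lower in the Lhx6 and Lhx8 panels. The share of all tested genes without overlap in CPM was not computed, so the separation is not a result about the 9 genes.

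The Dlx genes lie in convergent pairs, each with a non-coding RNA on the strand opposite to 1 of its genes. On GRCm38, Dlx1 is annotated at chr2:71528113-71533981 on the plus strand and Dlx2 at chr2:71543408-71546754 on the minus strand, 9426 bp apart. Dlx6 is at chr6:6863334-6868568 on the plus strand and Dlx5 at chr6:6877805-6882085 on the minus strand, 9236 bp apart. Dlx1as, the antisense RNA of the Dlx1 locus, runs across all of Dlx1 and shares 335 bp of exon with it on the opposite strand. Dlx6os1, also known as Evf2, runs across all of Dlx6 and is known as a regulator of Dlx5 and Dlx6 expression. Counting was by strand, which keeps reads of these genes and of their antisense partners apart.

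Dlx1as had 15.2, 15.8 and 14.4 CPM in WT and 25.5, 27.6 and 25.9 CPM in Fmr1-KO. The genotypes did not overlap, and the log2 fold-change of 0.80 (SE 0.06, edgeR adjusted P = 7.05e-10) was above the estimates of all 4 Dlx genes, with a 95% interval (0.67 to 0.92) that overlapped that of Dlx2. Dlx6os1 had 65.6, 66.4 and 61.9 CPM in WT and 86.2, 89.8 and 93.0 CPM in Fmr1-KO. It also rose without overlap, by a log2 fold-change of 0.47 (SE 0.04, edgeR adjusted P = 3.40e-09). The annotation holds a further entry under the name Dlx6os1, and the table gives their sum. Dlx6os2, a short RNA within the Dlx6 locus, had too few counts to be tested.

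Within each library, the log2 ratio of Dlx6os1 to Dlx6 was higher in Fmr1-KO by 0.34 and that of Dlx1as to Dlx1 also by 0.34. Neither ratio overlapped between genotypes. With 3 libraries against 3, the exact permutation test cannot give a P under 0.1, and both ratios gave 0.1 (adjusted P = 0.114 over the 8 ratios between pairs of genes that were examined). The ratio of Dlx1 to Dlx2 was 3.04 in WT and 2.79 in Fmr1-KO, a log2 difference of −0.13 without overlap (exact permutation P = 0.1). The ratio of Dlx5 to Dlx6 was 2.35 and 2.76, a log2 difference of 0.23 with overlapping libraries (exact permutation P = 0.2). Thus Dlx6 was not shown to differ from Dlx5 in its response, although only Dlx5 passed the test across genes.

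**Figure D2:**
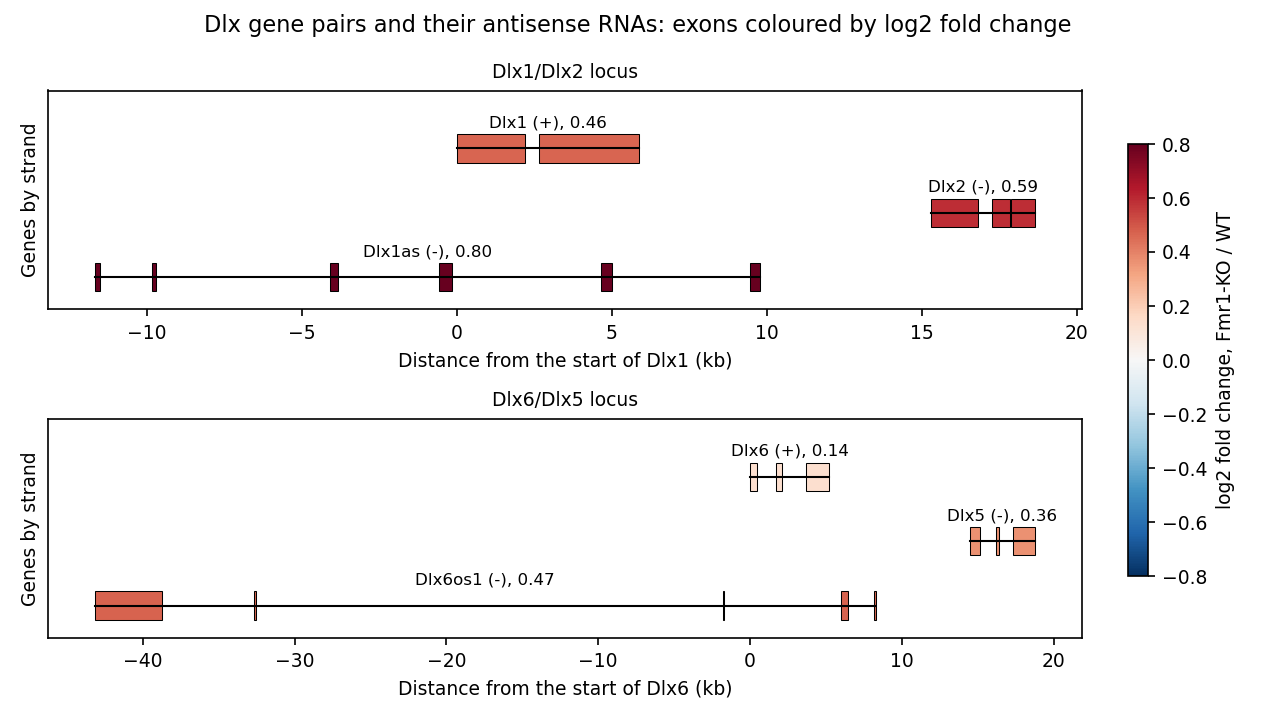
Maps of the Dlx1/Dlx2 and Dlx6/Dlx5 loci to scale, with distance in kb from the start of Dlx1 or Dlx6 on the horizontal axis, boxes for exons, a row for each gene and its strand in brackets. Colour and the number after each gene are the log2 fold-change of Fmr1-KO relative to WT, which was positive for all 6 RNAs, from 0.14 for Dlx6, not called, to 0.80 for Dlx1as.

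Sp8 and Sp9 are zinc finger factors that work together in newborn interneurons. Sp8, at chr12:118846329-118852576 on the plus strand, had 52.7, 52.6 and 55.8 CPM in WT and 66.6, 61.8 and 72.6 CPM in Fmr1-KO. All 3 Fmr1-KO libraries were above the WT libraries, with a log2 fold-change of 0.32 (95% interval 0.22 to 0.42, edgeR adjusted P = 1.64e-05). Sp9, at chr2:73271925-73284706 on the plus strand, had 31.2, 32.1 and 33.0 CPM in WT and 37.7, 34.4 and 37.6 CPM in Fmr1-KO. The genotypes did not overlap for Sp9 either, but replicate 2 of Fmr1-KO lay near the highest WT library. Its log2 fold-change of 0.19 (95% interval 0.09 to 0.29, edgeR adjusted P = 0.00383) was the smallest among the called genes. The log2 ratio of Sp8 to Sp9 was higher in Fmr1-KO by 0.13, without overlap (exact permutation P = 0.1). Sp9 was the 1 gene of the 9 whose name is on the study's list of targets of nonsense-mediated mRNA decay in N2A neuroblastoma cells.

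Across Dlx1, Dlx2, Dlx5, Sp8 and Sp9, replicate 2 of Fmr1-KO was the lowest of its genotype each time. This was also the library with the fewest counts, and the part of depth in this was not tested. Replicate 3 of Fmr1-KO was the highest for Dlx1, Dlx2, Dlx5, Dlx6 and Sp8. Nkx2-1 did not follow this order, with replicate 3 as its lowest Fmr1-KO library.

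Nkx2-1, the factor that specifies the medial ganglionic eminence, is at chr12:56531958-56536908 on the minus strand. It had 3.68, 3.09 and 3.36 CPM in WT and 5.17, 5.39 and 4.08 CPM in Fmr1-KO. The groups did not overlap, and replicate 3 of Fmr1-KO was nearest to WT. The rise rested on 342 and 475 reads per genotype and had a log2 fold-change of 0.52 (95% interval 0.26 to 0.79, edgeR adjusted P = 0.00189).

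Lhx6, a target of Nkx2-1 in the medial eminence and a factor that somatostatin and parvalbumin interneurons need, is at chr2:36081953-36105408 on the minus strand. It had 23.5, 23.7 and 24.5 CPM in WT and 17.3, 17.3 and 18.1 CPM in Fmr1-KO. The SD was 0.543 CPM in WT and 0.435 CPM in Fmr1-KO (n = 3), and all 3 Fmr1-KO libraries were below WT. The log2 fold-change was −0.44 (95% interval −0.56 to −0.33, edgeR adjusted P = 1.39e-06). Lhx6 and Nkx2-1 thus moved in opposite directions. The ratio of Nkx2-1 to Lhx6 was 0.141 in WT and 0.276 in Fmr1-KO, a log2 difference of 0.97 without overlap (exact permutation P = 0.1). The ratio of Lhx6 to Dlx1 was 0.0930 in WT and 0.0496 in Fmr1-KO, a log2 difference of −0.91, also without overlap (exact permutation P = 0.1).

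Lhx8, the close relative of Lhx6, is at chr3:154306294-154330659 on the minus strand and was the least abundant of the 9 genes. Its WT libraries held 28, 31 and 32 reads of it, whereas those of Fmr1-KO held 4, 13 and 8. On the CPM scale these were 0.806, 0.938 and 0.959 in WT and 0.123, 0.425 and 0.230 in Fmr1-KO. Every Fmr1-KO library was below every WT library, but replicate 1 of Fmr1-KO was near the level of 3 counts, which was 0.0923 CPM in that library. The log2 fold-change of −1.80 was the largest of the 9 genes and the least precise, with a 95% interval of −2.49 to −1.11 (edgeR adjusted P = 0.000138). Lhx8 passed the filter through its WT libraries only, where it was high, so this P value is not independent support for the fall. The log2 ratio of Lhx8 to Lhx6 differed by −1.53 without overlap (exact permutation P = 0.1).

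**Figure D3:**
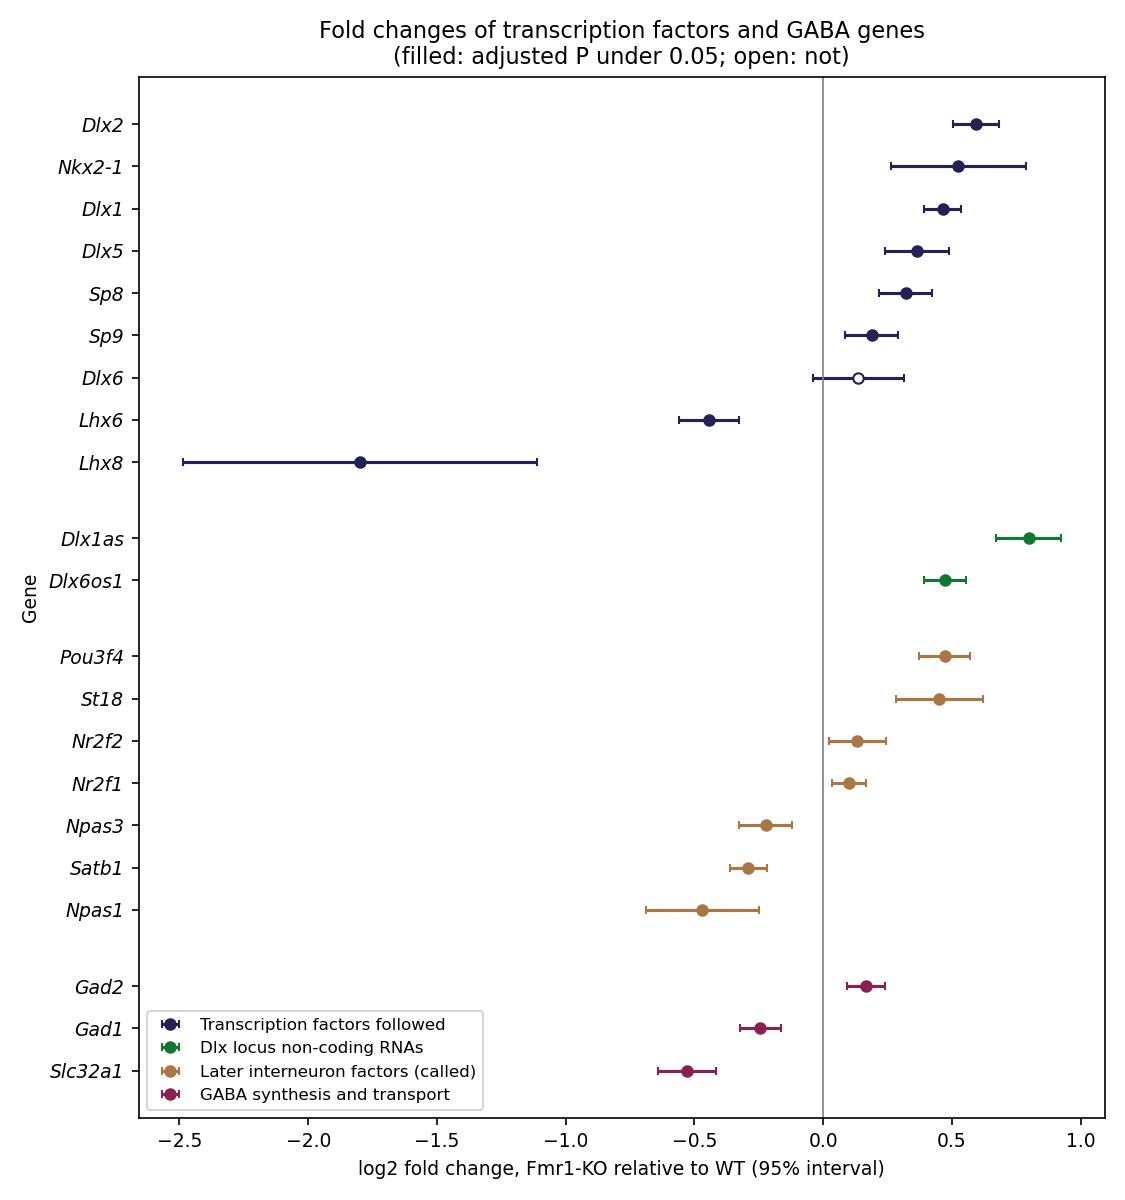
Log2 fold-change of Fmr1-KO relative to WT (horizontal axis) with 95% intervals for the 9 transcription factors, 2 Dlx locus RNAs, and the later interneuron factors and GABA genes named in the text (rows). Filled dots passed an adjusted P of 0.05 and open dots did not; among the 9 transcription factors, 6 filled dots are right of 0, those of Lhx6 and Lhx8 are left of it, and Dlx6 is open.

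Levels of different genes were compared per kb of annotated exon. On the scale of CPM per kb, Dlx1 was the highest in WT at 47.6 ± 1.45, followed by Dlx2 at 29.6 ± 0.855 (SD, n = 3). Dlx5 at 12.2 and Sp8 at 11.8 had overlapping ranges over the libraries, as did Lhx6 at 4.97 and Dlx6 at 4.92. Sp9 lay between these couples at 6.36, and Nkx2-1 at 1.19 and Lhx8 at 0.356 were the lowest. In Fmr1-KO the order was kept except that Dlx6, at 5.40 CPM per kb, now stood clear of Lhx6, at 3.65. Dlx5 at 15.6 and Sp8 at 14.7 still overlapped. The summed CPM of the 9 genes was 486 to 509 in the WT libraries and 621 to 691 in the Fmr1-KO libraries.

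GABA synthesis and transport genes, which mark GABAergic neurons as a whole, did not move in a single direction. Gad1, which encodes an enzyme that makes GABA, had 159, 151 and 162 CPM in WT and 129, 129 and 141 CPM in Fmr1-KO, with a log2 fold-change of −0.24 (edgeR adjusted P = 2.19e-05). Gad2, its partner enzyme, had 101, 98.6 and 98.4 CPM in WT and 107, 112 and 116 CPM in Fmr1-KO, with a log2 fold-change of 0.17 (edgeR adjusted P = 0.00071). Slc32a1, the transporter that loads GABA into vesicles, had 42.7, 48.1 and 46.5 CPM in WT and 31.8, 29.4 and 33.8 CPM in Fmr1-KO, with a log2 fold-change of −0.53 (edgeR adjusted P = 8.16e-08). None of the 3 overlapped between genotypes, and the share of all tested genes without overlap was not computed.

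The 9 factors were then set against the summed CPM of Gad1, Gad2 and Slc32a1 in the same library. Dlx1 stood at 0.849 of this sum in WT and 1.28 in Fmr1-KO, a log2 difference of 0.60. The log2 differences were 0.72 for Dlx2, 0.66 for Nkx2-1, 0.49 for Dlx5, 0.45 for Sp8, 0.32 for Sp9 and 0.26 for Dlx6. They were −0.31 for Lhx6 and −1.84 for Lhx8. All 9 ratios were without overlap between genotypes, and each had an exact permutation P of 0.1, the smallest possible (adjusted P = 0.1 over the 9 ratios). The ratios share a divisor, and the share of all tested genes without overlap on this scale was not computed. The lack of overlap is therefore not a result about the 9 genes. Dlx6 is among them, although its own CPM overlapped between genotypes. The choice of marker decided 2 directions. Relative to Gad2 alone, Dlx6 had a log2 difference of −0.038, and relative to Slc32a1 alone, Lhx6 had one of 0.086. The other 7 genes kept their direction with Gad2 alone and with Slc32a1 alone, but Sp9 relative to Gad2 alone was at 0.021. Gad1 alone was not used as a divisor.

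**Figure D4:**
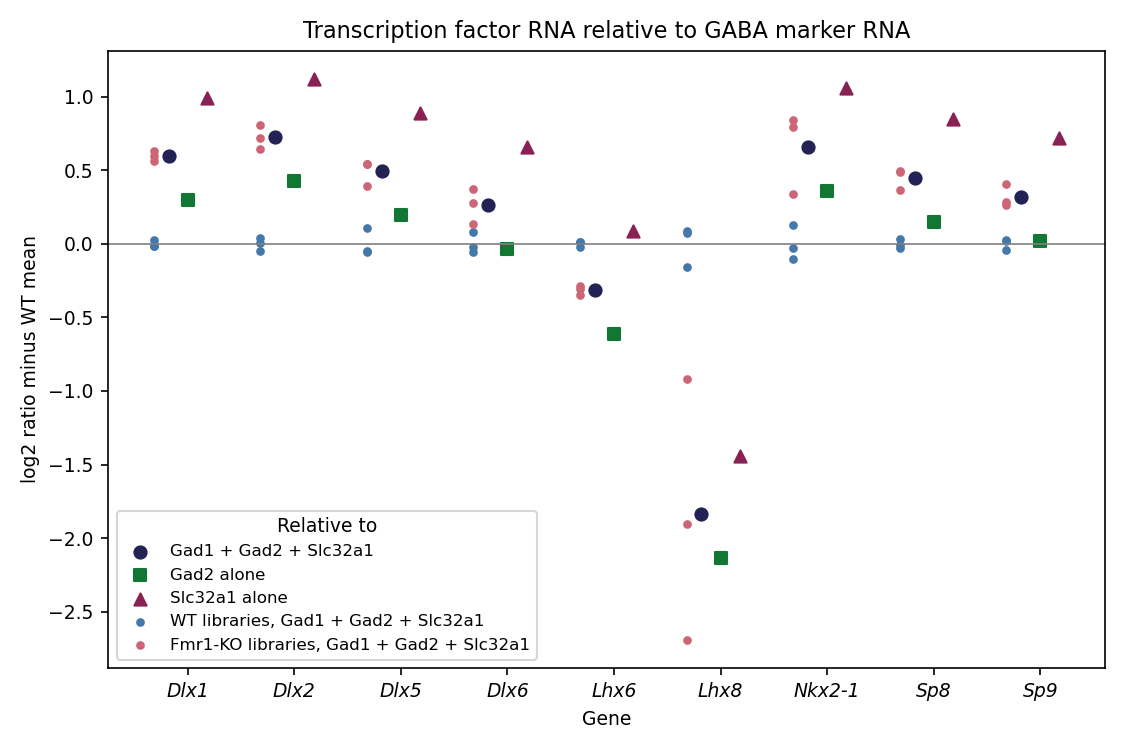
Log2 ratio of each transcription factor to GABA marker RNA, given as the difference from the WT mean (vertical axis), with small dots for the 3 WT and 3 Fmr1-KO libraries relative to Gad1, Gad2 and Slc32a1 summed. Large symbols are the mean of Fmr1-KO minus the mean of WT relative to the sum (circles), Gad2 alone (squares) or Slc32a1 alone (triangles); Dlx6 falls to −0.038 with Gad2 alone and Lhx6 is at 0.086 with Slc32a1 alone.

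The relatives of the 9 genes were followed as a fixed list of 21 genes of the Dlx, LIM-homeodomain, Nkx2 and Sp families, of which 13 had enough counts. Of these, 4 were higher, 4 were lower and 5 were not called, with a median log2 fold-change of 0.14. Over all tested genes, 20.7% were called higher and 21.9% lower, and no list was tested as a set against these shares. The rises were in the broadly used zinc finger factors Sp1, Sp2, Sp3 and Sp4, and the largest were 0.25 for Sp3 and 0.21 for Sp2. The falls were in Sp7, a factor best known from bone, at −0.80, in Nkx2-2, a factor of ventral progenitors and the oligodendrocyte lineage, at −0.39, and in Lhx1 at −1.13 and Lhx5 at −1.29, both under 1 CPM. Lhx1 and Lhx5 passed the filter through their WT libraries only, and Sp5 and Sp6, not called, through Fmr1-KO only; the other 9 genes gave 4 higher and 2 lower. Cofactors that bind LIM-homeodomain proteins or compete for their partners gave 3 higher and 2 lower of 7, with a median of 0.01. Among them Lmo1 rose by a log2 fold-change of 0.34, Ssbp3 by 0.23 and Ldb1 by 0.16, whereas Lmo2 fell by 0.31 and Ssbp2 by 0.24. With DESeq2, or when replicate 3 of WT or replicate 1 of Fmr1-KO was left out, 1 cofactor was called lower in place of 2.

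Patterning genes of ventral progenitors, which act before or beside the 9 factors, were split as well. Of 12 tested genes, 5 were higher, 2 were lower and 5 were not called, with a median log2 fold-change of 0.03. The shares over all tested genes were 20.7% higher and 21.9% lower. Gsx2, a homeodomain factor of the lateral eminence that lies upstream of the Dlx genes, had 5.50 ± 0.426 CPM in WT and 10.1 ± 0.938 CPM in Fmr1-KO (SD, n = 3), a log2 fold-change of 0.88. Helt, a factor that promotes GABAergic fate in the midbrain, rose by 1.64, from 0.780 to 2.44 CPM. The other rises were in Six3 at 0.74, Otx2 at 0.50 and Vax1 at 0.40, factors of the early forebrain. Shh, the ligand that induces Nkx2-1 in the ventral forebrain, fell by 0.94 on the log2 scale, in the direction opposite to Nkx2-1. Olig2, a factor of ventral progenitors that the oligodendrocyte lineage keeps, fell by 0.74.

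Transcription factors that interneurons use later gave 5 higher, 4 lower and 6 not called of 15, with a median log2 fold-change of −0.0062. Calls in both directions were common in general, at 20.7% higher and 21.9% lower over all tested genes. Pou3f4, a POU factor of the ventral forebrain, rose by 0.47, St18 by 0.45, and the nuclear receptors Nr2f2 by 0.13 and Nr2f1 by 0.10. Satb1, a chromatin organizer that acts after Lhx6 in somatostatin interneurons, had 96.7, 94.1 and 92.3 CPM in WT and 76.9, 78.4 and 76.2 CPM in Fmr1-KO. It fell by 0.29 on the log2 scale (edgeR adjusted P = 6.50e-07). Npas1, a factor of interneurons and pallidal neurons, fell by 0.47 and Npas3 by 0.22. When replicate 1 or 2 of WT or replicate 1 of Fmr1-KO was left out, 3 genes of this list were called higher in place of 5.

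All 8 receptors with roles in interneuron migration were called, 6 of them higher and 2 lower, with a median log2 fold-change of 0.17. The background over all tested genes was 20.7% higher and 21.9% lower. Cxcr4, the chemokine receptor that keeps migrating interneurons in their streams, had 36.8 ± 0.683 CPM in WT and 50.1 ± 1.41 CPM in Fmr1-KO (SD, n = 3), a log2 fold-change of 0.44. Robo1 rose by 0.32 and its relative Robo2 fell by 0.15, and Nrp2, a semaphorin receptor, fell by 0.23. Without replicate 3 of Fmr1-KO, 3 of these receptors were called higher in place of 6.

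Genes that mark interneuron subtypes showed the largest shift among the lists of the interneuron lineage, with 12 lower, 1 higher and 3 not called of 16 and a median log2 fold-change of −1.42. Of these, 3 genes passed the filter through WT only and could be called in 1 direction only. The other 13 gave 9 lower, 1 higher and 3 not called, with a median of −1.06. Among all tested genes, 21.9% were lower and 20.7% higher. Sst, which encodes the peptide somatostatin, had 40.7, 43.4 and 46.8 CPM in WT and 8.06, 6.86 and 7.67 CPM in Fmr1-KO. Its log2 fold-change of −2.53 (SE 0.07, edgeR adjusted P = 2.32e-16) had a 95% interval of −2.68 to −2.39, below that of Lhx6. Lamp5 fell by 2.43, from 2.82 to 0.519 CPM. Cck, a peptide of a class of interneurons that other cortical neurons express too, was the 1 gene that rose, by 0.71.

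Lists for the other ventral lineages in which the 9 factors act gave mixed counts, beside 20.7% higher and 21.9% lower over all tested genes. Striatal neuron genes gave 6 higher, 7 lower and 3 not called of 16, with Isl1 at a log2 fold-change of 0.56, Foxp2 at 0.38, Ppp1r1b at −0.91 and the dopamine receptor gene Drd1 at −1.26. Of 5 cholinergic genes 2 could be tested, and the choline transporter gene Slc5a7 was lower at −0.50 with overlapping libraries (edgeR adjusted P = 0.0335). Replicate 2 of Fmr1-KO, at 3.27 CPM, was level with replicate 3 of WT, and the call was lost with DESeq2 and when replicate 1 or 2 of WT or replicate 3 of Fmr1-KO was left out. Olfactory bulb interneuron genes gave 1 higher and 2 lower of 5, with Pax6 at 0.52, Prokr2 at −0.45 and Sall3 at −0.14. Under scaling by library totals alone, or without replicate 2 of either genotype, 1 of these 5 genes was called lower.

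**Figure D5:**
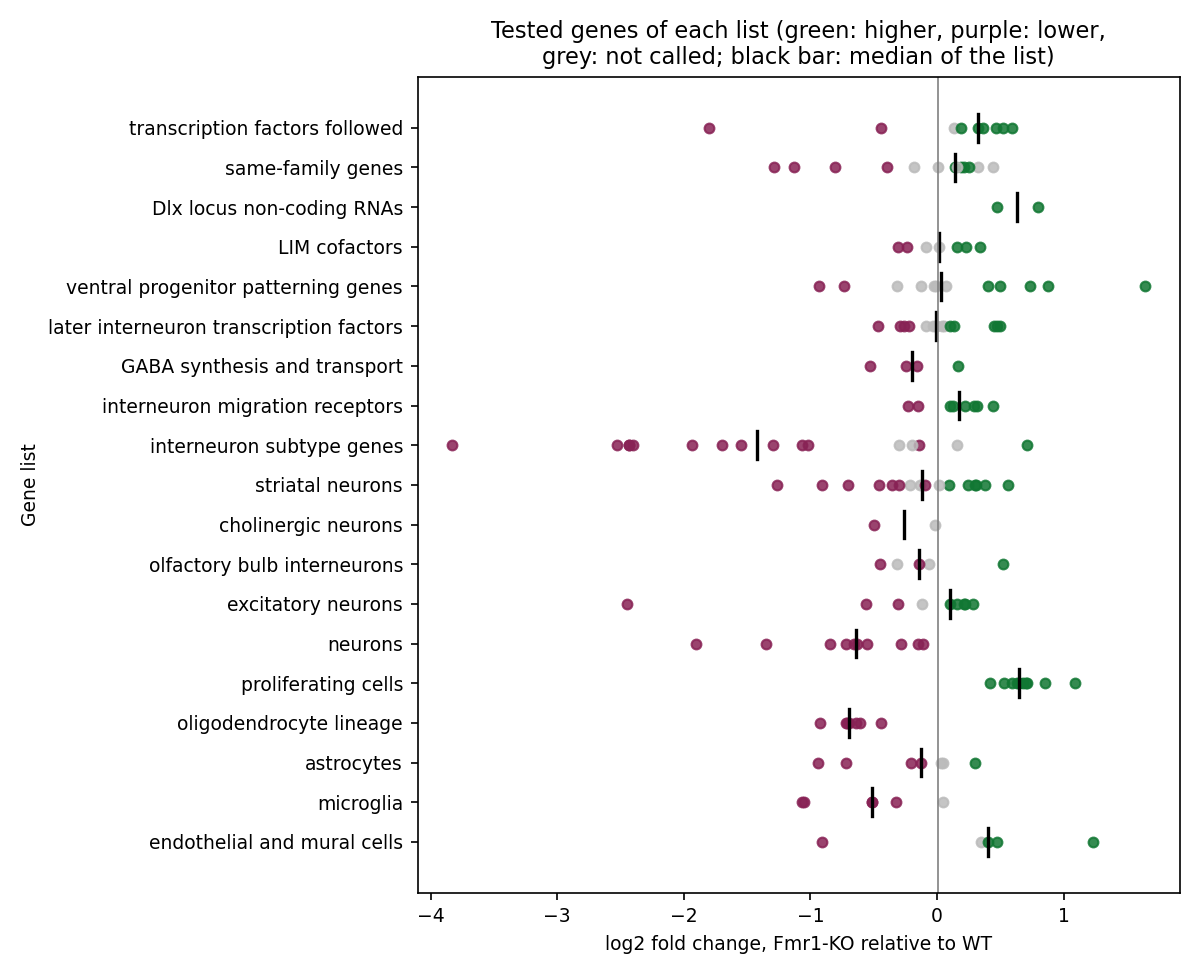
Log2 fold-change of Fmr1-KO relative to WT (horizontal axis) for every tested gene of the 9 transcription factors and 18 gene lists (rows), with called genes in green (higher) or purple (lower), genes not called in grey, and a black bar at each median. The grey line is the median of all tested genes, 0.0060; the median of the 9 transcription factors is 0.32 and that of interneuron subtype genes is −1.42.

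Markers of other cell types and states moved with genotype too, beside 20.7% of all tested genes called higher and 21.9% called lower. All 11 genes of proliferating cells were higher, with a median log2 fold-change of 0.65 and a summed level of 613 to 649 CPM in WT and 1040 to 1096 CPM in Fmr1-KO; Mki67 was at 1.09 and Top2a at 0.86. All 10 general neuronal genes were lower, with a median of −0.64 and a summed level of 3721 to 3825 CPM in WT and 2943 to 3096 CPM in Fmr1-KO. Excitatory neuron genes gave 5 higher and 3 lower of 9, with a median of 0.10. Among them Slc17a7, a vesicular glutamate transporter of mature neurons, fell by 2.45 on the log2 scale, from 20.2 to 3.69 CPM, and its relative Slc17a6 fell by 0.56, whereas Fezf2 rose by 0.29 and Neurod2 by 0.22. All 7 oligodendrocyte lineage genes were lower, with a summed level of 2116 to 2283 CPM in WT and 1223 to 1314 CPM in Fmr1-KO. Astrocyte genes gave 1 higher and 4 lower of 7, with a summed level of 4776 to 4896 CPM in WT and 4140 to 4523 CPM in Fmr1-KO. Microglial genes gave 5 lower of 6, from a summed 120 to 134 CPM in WT to 76.0 to 83.3 CPM in Fmr1-KO, and 3 of 6 were called lower without replicate 1 of WT. Endothelial and mural genes gave 3 higher and 1 lower of 5 tested, with a summed level of 75.5 to 82.9 CPM in WT and 93.0 to 99.6 CPM in Fmr1-KO. No gene of any of these lists was at 0 in all libraries. The part of these cell populations in the changes of the 9 transcription factors was not tested.

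Sequence upstream of the 9 genes was read from RefSeq promoters of GRCm38.p6, which covered 7 of them (all but Dlx5 and Dlx6) with 11 start sites. The 250 bases before each start were searched on both strands for GGGCGG, the GC box that factors of the Sp family bind, and for TAATTA and the shorter TAAT, which are cores of homeodomain sites and overlap each other. GGGCGG was in 6 of the 11 windows and in 32.7% of 32851 mouse promoter windows of the same length. TAATTA was in 1 window, at a start of Sp8, against 4.84% of all windows, and TAAT was in 4 against 54.9%. These counts are a description of letters and not of binding. The windows that hold a GC box and no annotated exon are shown in full, because they cover genes that rose (Dlx2, Nkx2-1 and Sp8) and 1 gene that fell (Lhx6). Each is printed 5′ to 3′ on the strand of its gene, with the GC box or its reverse complement in capitals. The windows are chr2:71546755-71547004 (minus strand) for Dlx2, chr12:56536909-56537158 (minus strand) for Nkx2-1, chr12:118846983-118847232 (plus strand) for Sp8 and chr2:36105409-36105658 (minus strand) for Lhx6.
Dlx2: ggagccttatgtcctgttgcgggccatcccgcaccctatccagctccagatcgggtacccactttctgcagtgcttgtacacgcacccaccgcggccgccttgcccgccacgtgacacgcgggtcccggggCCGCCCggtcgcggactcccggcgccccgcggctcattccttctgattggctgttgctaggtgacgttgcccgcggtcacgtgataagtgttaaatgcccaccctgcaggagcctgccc
Nkx2-1: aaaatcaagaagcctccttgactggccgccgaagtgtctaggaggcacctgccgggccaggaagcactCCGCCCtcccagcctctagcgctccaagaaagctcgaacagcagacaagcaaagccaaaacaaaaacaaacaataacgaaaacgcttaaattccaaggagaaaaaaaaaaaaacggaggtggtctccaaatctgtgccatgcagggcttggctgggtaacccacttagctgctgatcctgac
Sp8: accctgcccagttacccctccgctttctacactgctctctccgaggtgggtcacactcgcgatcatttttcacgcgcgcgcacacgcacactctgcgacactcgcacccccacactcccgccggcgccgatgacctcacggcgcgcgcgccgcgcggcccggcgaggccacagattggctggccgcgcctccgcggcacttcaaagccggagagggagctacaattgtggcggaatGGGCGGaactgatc
Lhx6: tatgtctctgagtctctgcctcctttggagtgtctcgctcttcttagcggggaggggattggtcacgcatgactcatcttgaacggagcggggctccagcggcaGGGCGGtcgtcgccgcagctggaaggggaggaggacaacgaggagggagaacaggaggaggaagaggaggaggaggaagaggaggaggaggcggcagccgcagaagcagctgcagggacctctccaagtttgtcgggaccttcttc

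These 4 windows were picked for holding a GC box, so its presence in them cannot be set against the direction of change. Each holds a single one, in both orientations among the genes that rose.

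The tested genes whose log2 CPM followed Dlx1 most closely over the 6 libraries were Snn and Lmnb1, with Pearson's r of 0.999 and 0.998. Lmnb1 encodes a lamin of the nuclear envelope. Their log2 fold-changes were 0.28 and 0.39, against 0.46 for Dlx1. The libraries form 2 genotype groups, so these values describe likeness of pattern mainly through the difference between genotypes.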

How the data were processed

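RNA-seq was measured in 6 libraries, 3 WT and 3 Fmr1-KO, grouped by the genotype in the labels. The deposited values are whole-number read counts that the authors had not normalized. By their methods, reads were trimmed with FastP, aligned with STAR and counted by gene name in reverse-stranded mode with featureCounts; per the labels the tools were STAR 2.7.6a and Subread 2.0.1 on GRCm38.p6. Counts by name do not separate isoforms. All count columns were used, and 0 rows lacked a gene name; 31650 of 55367 rows had a count.

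Genes were filtered with filterByExpr (minimum count 10), normalized by TMM and tested with edgeR 4.0.16 (R 4.3.3; glmQLFit, glmQLFTest, 2-sided, genotype only) with Benjamini-Hochberg adjustment over 16976 genes. SE is the size of the log2 fold-change divided by the square root of F. Ratios were compared by 2-sided exact permutation tests. Total counts were 30348556 to 35126207, and precision falls with the counts of a gene; the common biological coefficient of variation was 3.22%. Scripts were tested on simulated data. Exon lengths and positions came from GENCODE M21 (GRCm38), promoter sequence from RefSeq.

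Alternatives were DESeq2 1.42.0, scaling by RLE, by upper quartiles or by library totals alone, omitting the filter or tightening it, a replicate block, other GABA markers and leaving out each library. Same-numbered WT and Fmr1-KO libraries did not deviate together, so replicate numbers were not taken as pairs. The 9 genes and the gene lists were chosen with earlier results of these data known. Named were the 9 genes, Fmr1, GABA genes, Dlx locus RNAs, up to 2 called genes per direction and list with the largest change at a mean of at least 1 CPM, and the genes most like Dlx1. Sp1, Sp4, Sp5, Sp6, Lhx1, Lhx5, Ldb1, Six3, Otx2, Vax1, St18, Nr2f1, Nr2f2 and Npas3 fall outside this rule and were named after their values were seen, to fill out small counts. Some genes that the rule picks are left out of this account.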

Additional observations from a re-analysis of the deposited data

How the results depend on the processing

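All 9 genes kept their direction and their side of the threshold under every alternative that tested them, and the replicate block changed none of these calls (6 higher, 2 lower; over all genes 3694 lower and 3488 higher, against 3725 and 3506 without it). Log2 fold-changes ranged from 0.43 to 0.49 for Dlx1, 0.56 to 0.65 for Dlx2, 0.30 to 0.43 for Dlx5, 0.03 to 0.22 for Dlx6, −0.47 to −0.42 for Lhx6, −2.31 to −1.47 for Lhx8, 0.45 to 0.64 for Nkx2-1, 0.26 to 0.37 for Sp8 and 0.17 to 0.23 for Sp9. The highest adjusted P of a called gene was 0.0265, for Sp9 without Fmr1-KO replicate 1. Dlx6 reached 0.801 without Fmr1-KO replicate 3. With the stricter filter (a mean of at least 10 counts and 5 CPM), 1 of the genes was called lower and 5 higher, because Lhx8 (lower) and Nkx2-1 (higher) were no longer tested. Same-numbered libraries of the genotypes had correlations of deviations of −0.029, 0.032 and −0.015. DESeq2 called 3211 genes lower and 2699 higher.

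The ratios to GABA marker RNA moved with the marker. Relative to Gad2 alone the log2 differences were 0.297 for Dlx1, 0.425 for Dlx2, 0.194 for Dlx5, −0.0376 for Dlx6, −0.610 for Lhx6, 0.360 for Nkx2-1, 0.151 for Sp8 and 0.0209 for Sp9. Relative to Slc32a1 alone they were 0.994, 1.12, 0.890, 0.659, 0.0859, 1.06, 0.847 and 0.717 in the same order. Dlx6 and Lhx6 changed sign with a divisor that itself rose (Gad2) or fell (Slc32a1). Counts of called genes per list and setting stayed within 1.5 times in 345 cases and moved further in 15. The low counts of Lhx8 limit the precision of its change, and it passed the default filter through its WT libraries only.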
